A study of Homo sapiens with 24 samples.

Results

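The genes that encode the proteins of the cytosolic ribosome were followed across 3 estrogen receptor-positive human breast cancer cell lines kept in low or high glucose. Members were the rows of the gene table whose symbol is RPL or RPS with a number (and, where present, the ending A, X, L or L1), together with RPLP0, RPLP1, RPLP2 and RPSA. This rule uses names only and found 86 of the 18889 genes, of which 52 belong to the large and 34 to the small subunit. The lines were ZR-75-30, MDA-MB-175 and HCC1500, each a single established line of mammary carcinoma cells. Cells were first conditioned in low-glucose medium and then kept for 48 hours without serum in either 5 mM (LG, the control) or 25 mM glucose (HG, the model of hyperglycemia). Each of the 6 groups held 4 cultures, 24 in all, and bulk RNA was sequenced. Beyond calling them replicates the labels do not say how the 4 cultures were kept apart, so each p-value below measures only the spread between these cultures.

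A ribosome joins a small subunit, which reads the mRNA, to a large subunit, which forms the peptide bond, and each subunit holds its ribosomal RNA and a set of proteins made in near-equal numbers. The mRNAs of these proteins are short and abundant, and most belong to the terminal oligopyrimidine (TOP) class, which starts with a C and an unbroken run of C and T and whose translation is governed by growth signals through mTORC1 and LARP1. A few members have a paralog that is made at a lower level or in particular tissues.

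Depth was 9140024 to 17998819 reads per culture, as recovered from the deposited values, and every gene value is a normalized count that is not corrected for gene length. In HCC1500, the low-glucose libraries (13190982 to 17998819 reads) were all deeper than the high-glucose libraries (9423472 to 12140912 reads), and the part of this gap in the HCC1500 results was not tested. HCC1500 high-glucose replicate 3 stood apart from its group by a gain of short genes, described below, so HCC1500 is given without that library first. Luminal epithelial markers (8 of 8 in the table) summed to 30778 to 64553 in each culture. Their sum was lower at high glucose in ZR-75-30 (49036 to 53679 at low, 34942 to 40806 at high) and in HCC1500 (32482 to 34196 and 30778 to 30899), and overlapped in MDA-MB-175. Of these markers, CDH1 had a low-glucose mean of 55.6 in ZR-75-30, against 6498.5 in MDA-MB-175 and 8223 in HCC1500. Fibroblast markers (6 of 6 in the table) summed to 78.6 to 295, endothelial markers (3 of 4) to 0 to 95.3 and leukocyte markers (2 of 5) to 1.72 to 43.9. The leukocyte sum was 5.54 to 6.82 in ZR-75-30 at low and 33.6 to 43.9 at high glucose. This shift was that of CD68 alone (means of 5.66 and 37.7), while CD14 was at 0.52 in both. The part of the luminal and leukocyte marker shifts in the results was not tested. In bulk RNA, fewer cells of a kind and less of an mRNA per cell cannot be told apart, and a normalized value gives each mRNA only relative to the others.

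A few entries cannot be read as ribosomal protein genes of their own. RPL26 and RPL36A are each listed under a second identifier, which the annotation gives as a longer gene reading across the first and its neighbor. RPS10L (ENSG00000101278, chr20:820090-820620, GRCh37) is annotated as a processed pseudogene, with 0 to 7.75 per culture. For 77 member symbols the annotation also lists pseudogenes, 1587 in all, and reads shared with such copies could be assigned to either gene.

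The annotated starts of the members were inspected first, since the TOP sequence is what this family is known for. RefSeq promoter entries (GRCh38.p14) were found for 66 of the 84 member symbols, and 18 had no entry, among them RPL5 and RPL23. A C followed by 4 bases that are each C or T began exactly at an annotated start in 47 of the 66 (71.2%), against 5.14% of 27305 genes with entries. Searched on the gene's own strand and up to 3 bases to either side of the start, such a stretch was present in 53 of the 66 (80.3%) and in 16.02% of all genes. The windows below hold 5 bases before the annotated start and 16 from it, 5′ to 3′ on the strand of the gene, and capitals mark the unbroken run of C and T that covers the start base. The first 4 are members with a rise in glucose or a stalk role, the next 2 are RPS6 and RPL41, and the rest are paralogs, beside the parent gene where it has an entry, to show where the TOP sequence differs.
RPL4 (chr15:66504840-66504860, minus strand): gtggtaagcacttccttttcc
RPL21 (chr13:27251553-27251573, plus strand): TCTTTCCTTTCggccggaacc
RPL13A (chr19:49487603-49487623, plus strand): TCCTCCTTTTCCaagcggctg
RPLP2 (chr11:809962-809982, plus strand): gCCTTCCTTTTCCTCCCTgtc
RPS6 (chr9:19380221-19380241, minus strand): tggCCCTCTTTTCCgtggcgc
RPL41 (chr12:56116628-56116648, plus strand): CCTTTCTCTCggccttagcgc
RPL22 (chr1:6199580-6199600, minus strand): aCCTCCCTTTCTaactccgct
RPL22L1 (chr3:170870180-170870200, minus strand): gCTTCCTCTCTgctctcgcgg
RPL26 (chr17:8383178-8383198, minus strand): tagTTCTCTTCCCTTTTgcgg
RPL26L1 (chr5:172958724-172958744, plus strand): gggtcggcgaacgaaacgcgg
RPS27 (chr1:153990757-153990777, plus strand): tcgCTCCTTTCCggcggtgac
RPS27L (chr15:63157462-63157482, minus strand): cgagcgcagatcgcttgcagc
RPL7L1 (chr6:42879611-42879631, plus strand): gcgccgtagctaggagcggac
RPL26L1, RPS27L and RPL7L1 had no run of C and T at the annotated start, whereas RPL22L1, like RPL22, had one. RPL4 also had none over its annotated base, although a run of C and T lies further along its window, so a missing match depends on where the annotation places the start.

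The members together held a different part of the signal in each line, and more of it at high glucose in ZR-75-30 and, by less, in HCC1500. In ZR-75-30 they made up 6.13% ± 0.11 of all deposited signal at low glucose (SD, n = 4, range 6.04 to 6.27) and 7.97% ± 0.21 at high glucose (n = 4, range 7.70 to 8.19). These ranges were far apart. In MDA-MB-175 the share was 4.55% ± 0.13 at low and 4.60% ± 0.22 at high glucose (n = 4 each), and the ranges overlapped (4.42 to 4.74 and 4.38 to 4.88). In HCC1500 it was 2.45% ± 0.08 at low glucose (n = 4, range 2.35 to 2.54) and 2.71% ± 0.03 at high glucose (n = 3, range 2.68 to 2.75). The remaining HCC1500 high-glucose culture, replicate 3, had 5.61%, and with it the group mean was 3.44%. The 77 mitochondrial ribosomal protein genes, which build the separate ribosome of mitochondria, held 0.400% at low and 0.380% at high glucose in ZR-75-30.

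**Figure D1:**
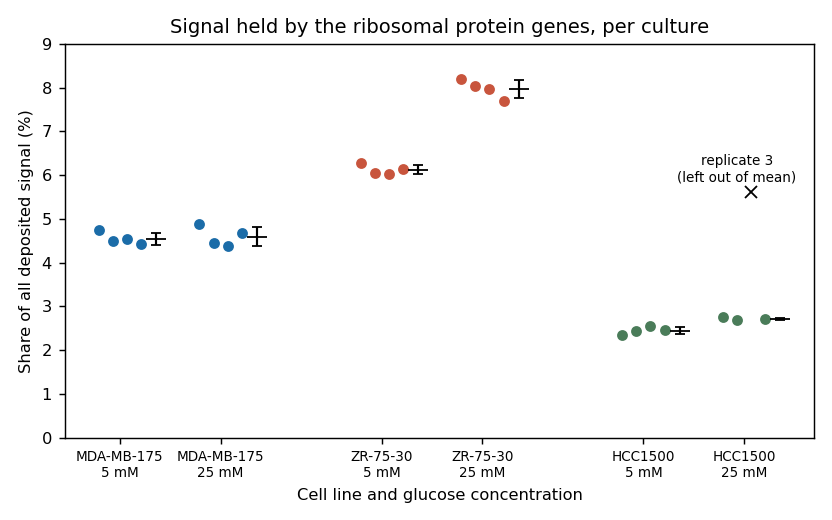
Share of all deposited signal held by the 86 cytosolic ribosomal protein genes (y axis, percent) in each culture, by cell line and glucose concentration (x axis); each point is 1 culture, the bar beside the points is the group mean ± SD, and the cross is HCC1500 high-glucose replicate 3, which is left out of its mean. The ZR-75-30 cultures lie at 6.04 to 6.27% in low and 7.70 to 8.19% in high glucose, the MDA-MB-175 groups overlap, and the cross lies at 5.61%, above every other HCC1500 culture.

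In ZR-75-30, nearly the whole family was higher in high glucose. Of 86 members, 78 rose, 1 fell and 7 did not pass (limma, adjusted p under 0.05 over all tested genes), whereas 23.4% of all tested genes rose and 22.7% fell. The median change was 0.41 on the log2 scale (1.33-fold), against 0.01 over all genes. The large subunit had 46 rises among 52 members (median 0.44) and the small subunit 32 among 34 (median 0.35). The changes were also close to one another: the middle 50% of members spanned 0.18 log2 units, against 0.55 for all genes. This was not particular to ZR-75-30, since the spans were 0.16 against 0.35 in MDA-MB-175 and 0.23 against 0.61 in HCC1500. Members and all genes were not matched for level in these spans. The 78 include the second entry of RPL26, whose values of 2.22, 0, 0 and 0 at low and 2.604, 2.03, 3.40 and 2.06 at high glucose are too few reads for a fold change. The count changed little under other scalings and when single cultures were left out (76 to 80).

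The largest rises in ZR-75-30 were those of RPL5, RPL21, RPS16 and RPL4. RPL5, which carries 5S rRNA into the large subunit and, together with RPL11, binds MDM2, measured 6100, 5737, 5805 and 6296 in the low-glucose and 10219, 9554, 9969 and 9567 in the high-glucose cultures. The groups did not overlap and the change was 0.72 ± 0.04 (log2 ± SE, 1.64-fold, adjusted p = 6.62e-11). RPL21, a large subunit protein, rose from 3249, 3205, 2944 and 3629 to 5574, 5187, 5503 and 5096 (0.72 ± 0.05, adjusted p = 1.95e-09). The groups again did not overlap. RPS16, a small subunit protein, rose from 5207, 5138, 5032 and 4860 to 8151, 7642, 7918 and 7027 (0.60 ± 0.04, adjusted p = 2.3e-09). RPL4, which lines the exit tunnel for the growing peptide, rose from 13842, 13388, 13482 and 13303 to 20709, 20207, 20772 and 19750 (0.59 ± 0.04, 1.51-fold, adjusted p = 3.65e-10). All 4 high-glucose cultures were above all 4 low-glucose cultures for each of these genes. RPS6, the small subunit protein phosphorylated by the S6 kinases, had 9667, 9236, 9264 and 9807 at low and 13756, 13440, 13860 and 13089 at high glucose (0.51, adjusted p = 2.62e-09). The only member that fell was the paralog RPL26L1. Those that did not pass included the paralogs RPL7L1, RPL22L1 and RPL39L, the pseudogene RPS10L, the second entry of RPL36A and RPL41. RPL41, the smallest ribosomal protein, was at 0.06 ± 0.04 (adjusted p = 0.255).

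In MDA-MB-175 few members differed between the glucose levels in the deposited scaling. Of 84 tested members (the second entries of RPL26 and RPL36A were below the filter) 10 rose and 4 fell, and 70 did not pass, against 11.9% of all genes that rose and 13.7% that fell, so the share of rises was close to that among all genes. The median change was 0.02 (log2), against -0.02 over all genes. The large subunit had 9 rises and 2 falls among 50 members and the small subunit 1 rise and 2 falls among 34. The rises were small. They ranged from 0.13 for RPL7 to 0.26 for RPL4, and also took in RPL3, RPL11, RPL13A, RPL15, RPL21, RPL23, RPL26 and RPS23. RPL4 measured 7349, 7059, 6980 and 7192 at low and 8882, 8528, 7989 and 8902 at high glucose, without overlap (0.26 ± 0.04, adjusted p = 0.000238). The falls were those of RPL41, RPS29, RPL36 and RPS12, at -0.27 to -0.17. RPL41 measured 4610, 4176, 4241 and 3714 at low and 3860, 3250, 3228 and 3575 at high glucose, and the groups overlapped at their edges (-0.27 ± 0.06, adjusted p = 0.00587). These counts depended on the scaling: rescaled so that each library sums alike (CPM), 9 members rose and 10 fell, and after median-of-ratios rescaling 17 rose and 4 fell. With the trend of each sample over gene length removed, 39 rose and 1 fell (median 0.10). Over all genes the medians in CPM, after median-of-ratios rescaling and with the length trend removed were -0.04, -0.001 and 0.004. Those of the members were -0.004, 0.04 and 0.10. The shares of all genes called under these scalings are not given here, so only the medians can be set against all genes. RPL17 varied widely within each group, with 1424, 1613, 703 and 488 at low and 401, 333, 1176 and 719 at high glucose (-0.70 ± 0.36, adjusted p = 0.18).

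In HCC1500 without high-glucose replicate 3, more members rose than fell, by small amounts. Of 86 members 51 rose, 11 fell and 24 did not pass, whereas 20.6% of all genes rose and 37% fell. The median change was 0.12 (1.08-fold). The median of all genes was itself at -0.12 in the deposited scaling and at -0.01 after median-of-ratios rescaling, so relative to all genes the members' median lay 0.24 higher. With that rescaling 67 members rose and 5 fell, and the share of all genes called in that fit is not given here. Both subunits had a median of 0.12, with 31 of 52 large and 20 of 34 small subunit members higher.

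In HCC1500, RPL7L1, a paralog of RPL7 that takes part in ribosome assembly, had 1523, 1513, 1558 and 1521 at low and 2179, 2290 and 2204 at high glucose (0.54 ± 0.03, 1.45-fold, adjusted p = 1.41e-11). RPS13, a small subunit protein, had 643, 620, 717 and 644 at low and 906, 906 and 873 at high glucose (0.45 ± 0.04, adjusted p = 6.29e-08). RPSA, also known as the laminin receptor precursor, had 1429, 1522, 1546 and 1548 and then 2082, 1864 and 1853 (0.35 ± 0.04, adjusted p = 4.61e-07). None of these 3 groups of values overlapped. RPS19, which is mutated in Diamond-Blackfan anemia, rose by 0.39 ± 0.04 (adjusted p = 3.74e-07). The falls were led by RPS10L (-1.13 ± 0.29, at 1.99 to 7.75 per culture), RPL26L1, RPL39L and RPL41. RPL41 measured 2303, 2350, 2613 and 2336 at low and 1742, 1891 and 1901 at high glucose (-0.38 ± 0.04, adjusted p = 2.7e-07), and RPS4X, the X-linked small subunit protein, fell by 0.29 on the log2 scale (adjusted p = 2.51e-07). RPS6 measured 1983, 2039, 2075 and 2055 at low and 2037, 2022 and 2074 at high glucose, a difference of 0.00 ± 0.03 (adjusted p = 0.889).

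High-glucose replicate 3 of HCC1500 changed the count of called members in this line more than leaving out any other HCC1500 culture did. Over genes with a mean of at least 10, its values exceeded the mean of the other 3 high-glucose cultures in 82 of 83 members, with a median of 1.48 (log2), and only RPL7L1 was lower (-0.25). Short genes were high in general: the median was 1.17 for 861 other genes with an exon length under 1000 bases, 0.72 for 4676 genes of 1000 to 3000 bases and -0.16 for 6729 longer genes. The median exon length of the members is 785 bases, against 2897 for all genes. Mitochondrial ribosomal protein genes were also high in this library (median 1.12 over 77 genes). With it included, the median member change was 0.48 but the spread left a single member called, RPL7L1 (0.48 ± 0.08, adjusted p = 0.00471), against 7.46% of all genes that rose. With the length trend of each sample removed as well, an alternative chosen after seeing the data, 53 members rose and 2 fell. The median was 0.40, against -0.01 over all genes, and the share of all genes called in that fit is not given here. RPL4 had 2337, 2372, 2442 and 2449 at low and 2942, 2841 and 2908 at high glucose in the 3 other cultures, and 5583 in replicate 3. Its change was 0.27 ± 0.03 (adjusted p = 8.91e-08) without and 0.51 ± 0.21 (adjusted p = 0.122) with that library.

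**Figure D2:**
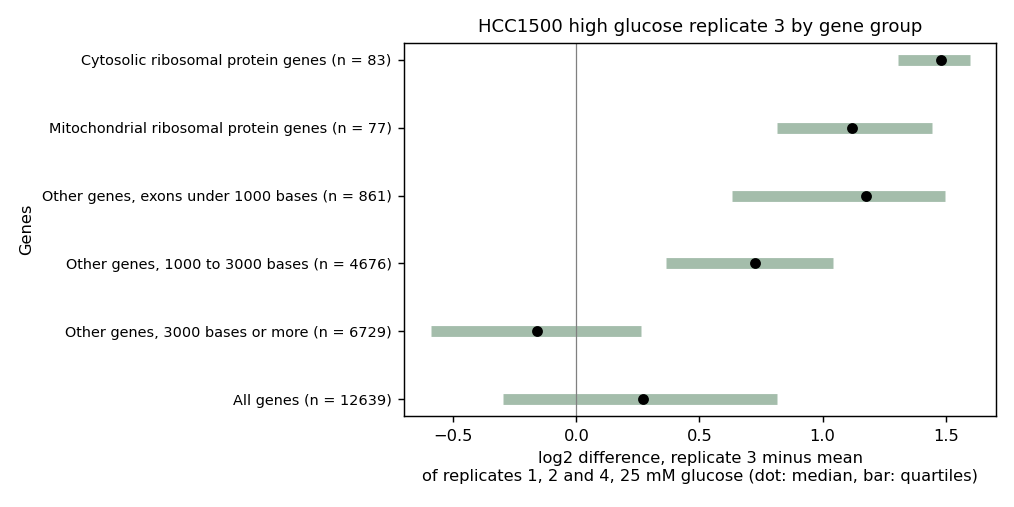
Log2 difference of HCC1500 high-glucose replicate 3 from the mean of the other 3 high-glucose HCC1500 cultures (x axis) for gene groups with a mean of at least 10 (y axis); dots are medians and bars run between the quartiles over genes. Cytosolic ribosomal protein genes have a median of 1.48, other genes with exons under 1000 bases 1.17, and genes of 3000 bases or more -0.16.

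Set side by side, few members were called in all 3 lines. This count is limited by the calls in MDA-MB-175, which depended on the scaling. 7 members rose in every line (RPL4, RPL11, RPL13A, RPL21, RPL23, RPL26 and RPS23), against 3.71% of 14705 genes tested in all lines, and none fell in every line, against 6.68%. The most frequent pattern, in 40 members, was a rise in ZR-75-30 and HCC1500 without a call in MDA-MB-175 (4.35% of all genes), and 18 were called in ZR-75-30 alone, as rises (5.62% of all genes). Another 6 members rose in ZR-75-30 and fell in HCC1500, with no call in MDA-MB-175, against 5.29% of all genes. Across 81 members Pearson's r of the changes was 0.45 for ZR-75-30 with MDA-MB-175, 0.32 for HCC1500 with MDA-MB-175 and 0.28 for HCC1500 with ZR-75-30, given as a description over genes that are not independent of one another.

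**Figure D3:**
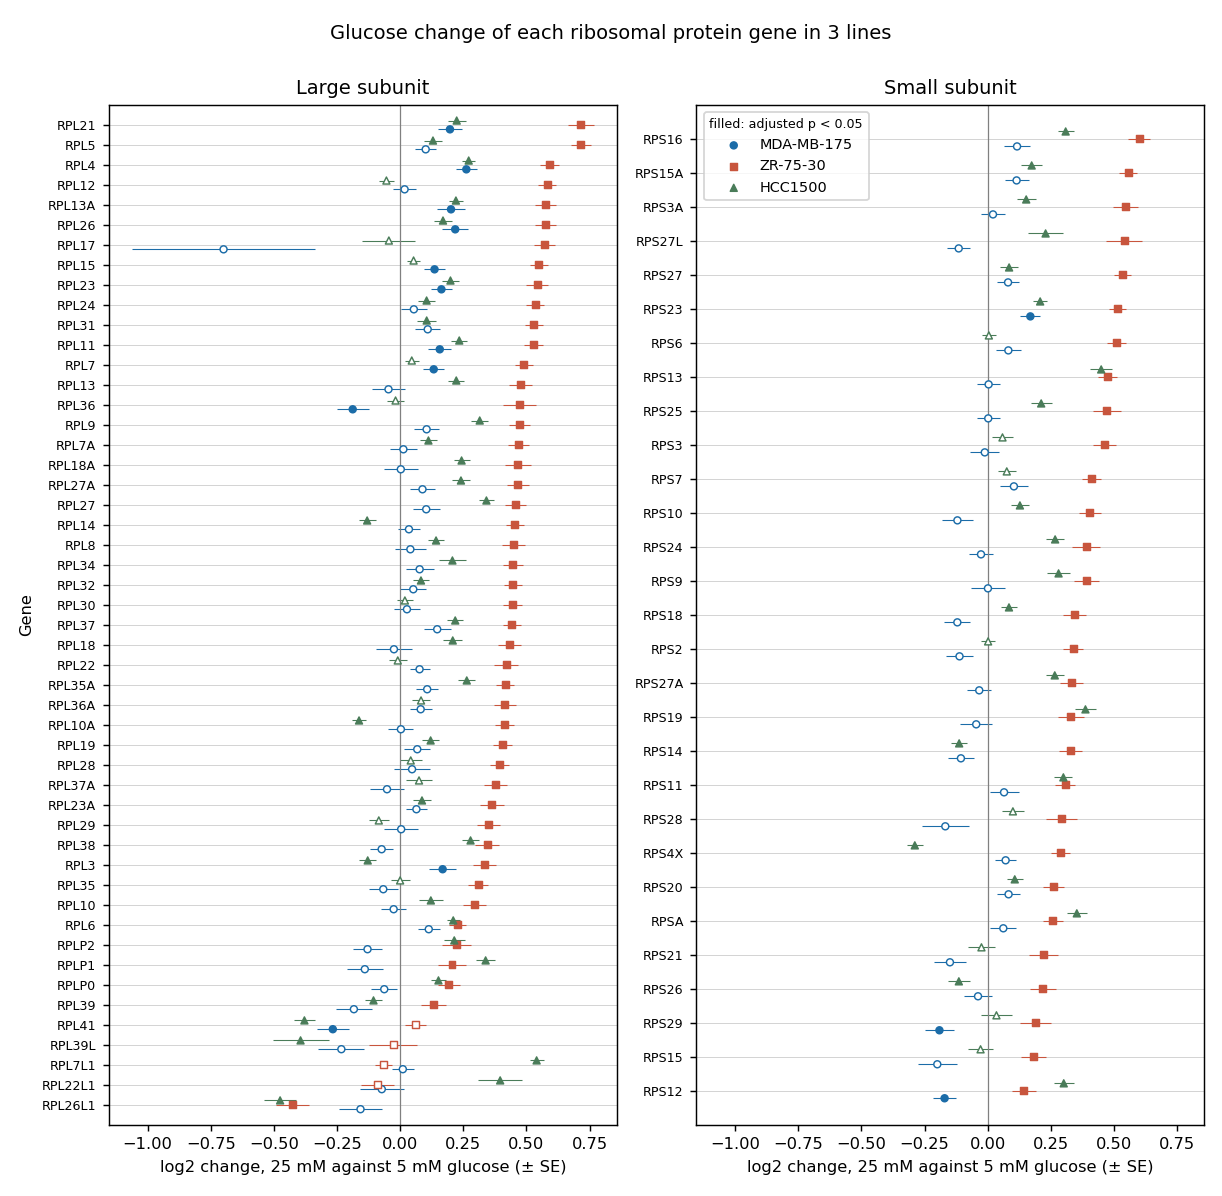
Change of each member from low to high glucose (x axis, log2 ± SE) in the large (left) and small (right) subunit, 1 row per gene in order of the ZR-75-30 change; circles are MDA-MB-175, squares ZR-75-30 and triangles HCC1500 without replicate 3, filled where limma's adjusted p was under 0.05, and RPS10L, the second entries and a few other members are not drawn. The squares gather around 0.41, the circles around 0.02 and the triangles around 0.12, and RPL26L1, RPL7L1 and RPL22L1 depart from this order at the foot of the left panel.

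The difference in response between lines was tested directly. The F test that all 3 lines changed alike was called for 79 of 86 members, against 48.6% of all genes. The change in ZR-75-30 exceeded that in MDA-MB-175 for 75 members and was below it for 1 (median difference 0.37), whereas 13.3% of all genes were higher and 12.6% lower. The change in HCC1500 exceeded that in MDA-MB-175 for 25 members and was below it for 5, against 11.3% and 21.1% of all genes. The median difference was 0.08, against -0.10 over all genes. Between HCC1500 and ZR-75-30 the median difference was -0.30, against -0.11 over all genes. Compared with ZR-75-30, the change in HCC1500 was larger for 2 members and smaller for 52, against 14.9% and 25.6% of all genes. RPL7L1 was one of the exceptions, with a change in HCC1500 that was 0.53 above that in MDA-MB-175 (adjusted p = 1.19e-09) and 0.61 above that in ZR-75-30 (adjusted p = 8.45e-11). RPL5, RPL12 and RPL15 differed the other way. The ZR-75-30 change of RPL5 was 0.61 above that of MDA-MB-175, and the HCC1500 change minus the ZR-75-30 change was -0.59. RPL12, a protein at the base of the stalk, rose in ZR-75-30 from 4233, 4259, 4204 and 4095 to 6478, 6484, 6158 and 6024 (0.58 ± 0.04, adjusted p = 2.73e-10) and was at -0.05 ± 0.03 in HCC1500 (adjusted p = 0.15). With HCC1500 replicate 3 included, 3 members were still called in the F test, among them RPL7L1 and RPL22L1. The share of all genes called in that fit is not given here.

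Members known for a role of their own gave the following values. The stalk proteins RPLP0, RPLP1 and RPLP2, which recruit the translation factors, were at -0.06, -0.14 and -0.13 in MDA-MB-175 without passing (adjusted p = 0.419, 0.172 and 0.106). They rose by 0.19, 0.21 and 0.22 in ZR-75-30 and by 0.15, 0.34 and 0.21 in HCC1500, and in ZR-75-30 each lay below the members' median. RPL11, the partner of RPL5, rose by 0.53 ± 0.04 in ZR-75-30, 0.23 ± 0.03 in HCC1500 and 0.16 ± 0.05 in MDA-MB-175. RPS27A, made as a fusion with ubiquitin, rose by 0.33 in ZR-75-30 and 0.27 in HCC1500, and was at -0.03 in MDA-MB-175 (adjusted p = 0.671). RPL10, which lies near the peptidyl transferase center, rose by 0.29 ± 0.05 in ZR-75-30 and 0.12 ± 0.05 in HCC1500. RPS3, at the mRNA entry, rose in ZR-75-30 (0.46 ± 0.05, adjusted p = 1.22e-07) and was at 0.06 in HCC1500 and -0.01 in MDA-MB-175 without passing.

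The paralogs did not follow their parent genes in several cases. RPL26L1, the paralog of RPL26, had 177, 191, 181 and 183 at low and 139, 130, 133 and 140 at high glucose in ZR-75-30 (-0.43 ± 0.07, adjusted p = 2.67e-05). In HCC1500 it had 155, 156, 151 and 155 and then 113, 105 and 113 (-0.48 ± 0.06, adjusted p = 4.57e-06), and it was at -0.16 in MDA-MB-175 (adjusted p = 0.199). RPL26 rose in those lines by 0.58 ± 0.04 and 0.17 ± 0.03. RPL7L1 measured 1650, 1644, 1619 and 1630 and then 1596, 1562, 1555 and 1537 in ZR-75-30 (-0.07, adjusted p = 0.115), where RPL7 rose by 0.49 ± 0.04. In HCC1500 RPL7L1 rose, as given above, and RPL7 was at 0.05 ± 0.03 (adjusted p = 0.159). RPL22L1 was at 68.0, 69.2, 67.9 and 67.6 at low and 95.0, 93.0 and 82.6 at high glucose in HCC1500 (0.40 ± 0.09, adjusted p = 0.000805), where RPL22 was at -0.01 (adjusted p = 0.834). The direction of RPL22 turned with the scaling, to 0.11 after median-of-ratios rescaling. RPL39L fell in HCC1500 (-0.39 ± 0.11, adjusted p = 0.00539), and so did RPL39 (-0.11 ± 0.03, adjusted p = 0.0143), but the latter moved to 0.01 after that rescaling. RPS27L, a target of p53, behaved like its parent RPS27 in ZR-75-30: it had 289, 242, 243 and 305 at low and 396, 368, 399 and 401 at high glucose (0.54 ± 0.07, adjusted p = 4.03e-06), and RPS27 rose by 0.53 ± 0.04. Of the 53 members with a TOP sequence near the annotated start, 51 rose in ZR-75-30 (median 0.41). Of the 13 without a match there, RPL4 among them, 11 rose and 1 fell (median 0.29). A missing match depends on where the annotation places the start, so these 13 cannot be taken as members without the motif. Whether the motif bears on the change was not tested.

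**Figure D4:**
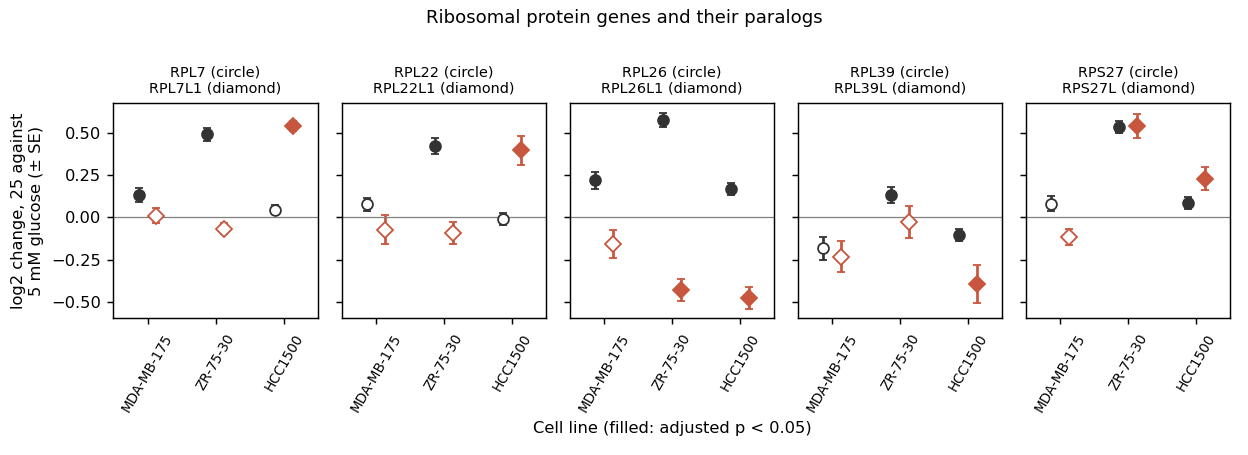
Change from low to high glucose (y axis, log2 ± SE) of 5 parent genes (circles) and their paralogs (diamonds) in each line (x axis), filled where limma's adjusted p was under 0.05, with HCC1500 shown without replicate 3. RPL26L1 lies at -0.43 in ZR-75-30 and -0.48 in HCC1500 where RPL26 lies above 0, RPL7L1 and RPL22L1 lie high in HCC1500 at 0.54 and 0.40, and RPS27L meets RPS27 in ZR-75-30.

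At low glucose, the family as a whole differed more between lines, in its median, than between glucose levels within a line. In ZR-75-30 it was higher than in MDA-MB-175 for 68 members and lower for 9 (median 0.65, 1.57-fold), against 28.8% and 44.3% of all genes. In CPM, 61 were higher and 15 lower (median 0.41, against -0.26 over all genes and -0.18 in the deposited scaling). The share of all genes called in CPM is not given here. In HCC1500 the family was higher than in MDA-MB-175 for 3 members and lower for 78 (median -0.88, 1.84-fold lower), against 42.2% and 38.4% of all genes. Compared with ZR-75-30, it was higher in HCC1500 for 2 and lower for 82 (median -1.51, 2.84-fold lower), against 48% and 32.4% of all genes. The order ZR-75-30, MDA-MB-175, HCC1500 held for the group means of 68 members, and for 62 of these both steps passed the test. The sources used here do not say how the lines were divided over culture or sequencing runs, and line and handling cannot be told apart.

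RPL23 stood farthest from the rest. This large subunit protein, also known to bind MDM2, measured 25892, 24208, 24348 and 25796 in the low-glucose cultures of ZR-75-30, 3361, 3229, 3138 and 3055 in MDA-MB-175, and 936, 899, 989 and 943 in HCC1500. It was 7.84-fold higher in ZR-75-30 than in MDA-MB-175 (2.97 ± 0.04, adjusted p = 2.5e-17) and 26.6-fold higher than in HCC1500. RPL23 alone made up 5.63% of the members' signal in ZR-75-30, 1.14% in MDA-MB-175 and 0.679% in HCC1500. The glucose difference did not depend on it, since without RPL23 the members held 5.78% of all signal at low and 7.49% at high glucose in ZR-75-30. The gene lies at chr17:37004113-37010017 (ENSG00000125691, GRCh37). Of 19 other tested genes within 1000000 bases, 12 were higher in ZR-75-30 than in both other lines and 4 were lower than in both, and the median difference from MDA-MB-175 was 2.56. Next to it, LASP1 was 3.41 (log2) above MDA-MB-175 and 3.68 above HCC1500, and ERBB2, the HER2 receptor gene, was 3.89 and 5.52 above. RPL19, a member in the same window, was 0.14 below MDA-MB-175 and 1.42 above HCC1500, so the stretch was not uniform.

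Other members departed from the common order. RPS3 was highest in MDA-MB-175, with 15362, 13532, 14489 and 13117, followed by ZR-75-30 with 8502, 8148, 8478 and 7746 and HCC1500 with 4490, 5065, 5109 and 5114. RPS27L was also highest in MDA-MB-175, at 614 to 654, against 242 to 305 in ZR-75-30 (-1.22 ± 0.07) and 187 to 205 in HCC1500. RPSA was lower in HCC1500 than in MDA-MB-175 (-2.14 ± 0.04, 4.41-fold lower). RPL7L1, by contrast, was higher in HCC1500 than in MDA-MB-175 (0.43 ± 0.03, adjusted p = 1.01e-08). Per kilobase of mRNA, the highest mean over the lines was that of RPL23, followed by RPS18 and RPS27, but RPL23 led in ZR-75-30 (40098) and not in MDA-MB-175 (5113) or HCC1500 (1507), where RPS3 had 16310 and 5710. Besides the second entries and RPS10L, RPS27L and RPL22L1 had the lowest at the annotated mRNA lengths used here. The length taken for RPS27L was 6110 bases, of which 252 are coding, and that for RPL22L1 was 1902 bases. A shorter mRNA would raise these values, so their place depends on the annotation.

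**Figure D5:**
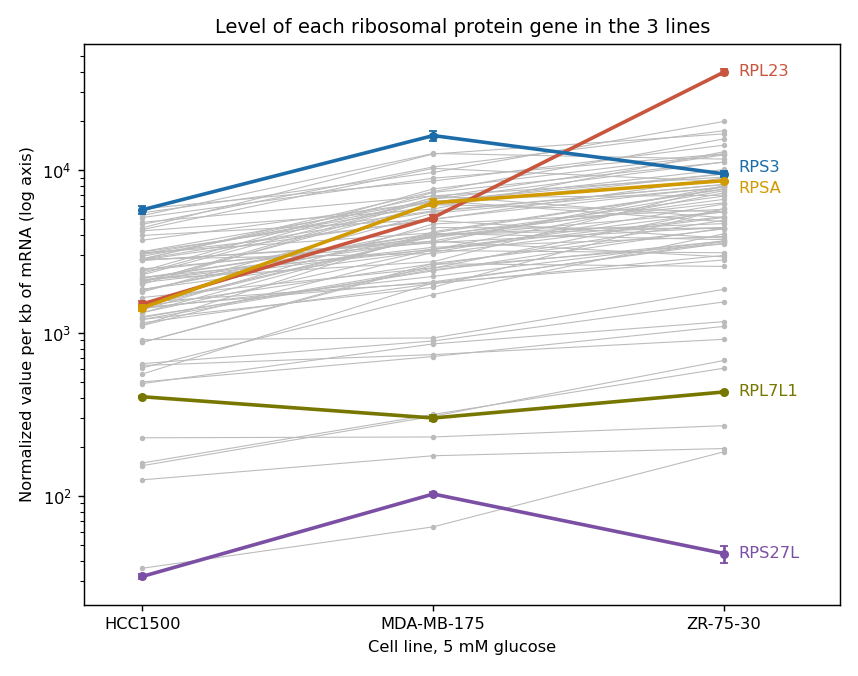
Normalized value per kilobase of mRNA (y axis, log scale) of each member at low glucose in HCC1500, MDA-MB-175 and ZR-75-30 (x axis); each line is 1 member at the mean of 4 cultures, a few members are not drawn, and named members are in color with SD bars. Most lines climb from HCC1500 to ZR-75-30, RPL23 climbs farthest, and RPS3 and RPS27L are highest in MDA-MB-175. The height of each member depends on its annotated mRNA length, which is long for some (6110 bases for RPS27L, 7573 for RPL37).

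Genes related to the members by function gave the following counts. Of all tested genes, 23.4% rose and 22.7% fell in ZR-75-30, 11.9% and 13.7% in MDA-MB-175, and 20.6% and 37% in HCC1500. The medians over all genes in these lines were 0.01, -0.02 and -0.12. The 4 ribosomal proteins in the table whose symbols the rule does not take in all rose in ZR-75-30, among them FAU by 0.19, GNB2L1 by 0.40 and RPL36AL by 0.33, while 2 rose and 1 fell in HCC1500 and 1 fell in MDA-MB-175. Of 14 translation genes known for TOP mRNAs, 12 rose and 1 fell in ZR-75-30 (median 0.46), 6 rose in MDA-MB-175 (median 0.10), and 7 rose and 2 fell in HCC1500 (median 0.06). In ZR-75-30 the rises included the initiation factors EIF4B at 0.94 and EIF3E at 0.74 and the elongation factors EEF2 at 0.64 and EEF1A1 at 0.50, and the fall was that of HNRNPA1, an RNA-binding protein, at -0.16. The 14 genes of mTORC1 and of TOP regulation were mixed, with 5 rises and 4 falls in ZR-75-30, 5 and 1 in MDA-MB-175, and 6 and 4 in HCC1500. TSC1, which restrains mTORC1, rose in all 3 lines, by 0.85 in ZR-75-30, 0.58 in HCC1500 and 0.35 in MDA-MB-175. LARP1, which holds TOP mRNAs, rose by 0.12 in ZR-75-30 and 0.41 in HCC1500, and was at 0.09 in MDA-MB-175 without passing. Others in this list went other ways. DDIT4 fell by 0.39 in ZR-75-30 and by 0.85 in HCC1500 and rose by 0.32 in MDA-MB-175. TSC2 fell by 0.34 in HCC1500 and did not pass in the other lines. Mitochondrial ribosomal proteins gave other counts than the cytosolic ones. Of 77, 15 rose and 21 fell in ZR-75-30 (median -0.05), 1 rose and 23 fell in MDA-MB-175 (median -0.09), and 12 rose and 34 fell in HCC1500 (median -0.11).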

How the data were processed

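Bulk RNA of 24 cultures was sequenced on an Illumina HiSeq. The deposited signal is 1 table of normalized gene counts with a column per culture. Per the labels, the authors' processing named edgeR and the build hg38, while the methods of the study name hg19 and Ensembl for other samples; which was used here, and whether libraries kept strand, is not given in the sources used here. Gene positions are those of GENCODE 44 on GRCh37, matched by gene identifier. From each column the whole reads were recovered (100% of values within 0.05 of a whole read). The values were analysed as log2(value + 1) with limma 3.58.1 in R 4.3.3 (trended prior, two-sided, Benjamini-Hochberg over all tested genes, adjusted p under 0.05), for genes at 0.5 or more in at least 4 cultures (3 for HCC1500). Fold changes on this scale understate those of low genes. Each line was fitted alone, lines were compared over the low-glucose cultures, and responses over 23 cultures without HCC1500 high-glucose replicate 3. edgeR 4.0.16 and DESeq2 1.42.0 were run on the recovered reads as alternatives. The steps were tested on simulated data. The members, gene lists and the exclusion of replicate 3 were chosen with earlier results of these data known. Named members were the largest called changes per comparison, those called with one sign in all lines, those most different in response, paralogs, role genes and extremes of level, and the values of some genes are not reported here. Counting error is not the main limit at these depths, and 3 reads equal 0.953 to 2.29 in value.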

Additional observations from a re-analysis of the deposited data

Results flagged for a closer look

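The response of 79 members differed between lines in the F test. Those with the smallest p were RPL7L1 (HCC1500 minus MDA-MB-175 0.53, HCC1500 minus ZR-75-30 0.61), RPL12 (ZR-75-30 minus MDA-MB-175 0.56, HCC1500 minus ZR-75-30 -0.64), RPL5 (0.61 and -0.59 for the same pairs) and RPL15 (0.41 and -0.50 for the same pairs), all on the log2 scale.

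HCC1500 high-glucose replicate 3 lay apart from its 3 fellows in the members' share of signal (5.61%) and in the level of 34 of 39 named genes, by Dixon's test in groups of 4. In the other groups 12 values lay apart by that test, of 240 groups tested in all, where chance alone gives about 1 in 20. In ZR-75-30 these were RPSA in low-glucose replicate 4 (8924), RPLP0 in high-glucose replicate 4 (20604), RPS27L in high-glucose replicate 2 (368) and the second entry of RPL26 in low-glucose replicate 1 (2.22). In MDA-MB-175 they were RPL7L1 in low-glucose replicate 2 (1053), RPS27L in low-glucose replicate 1 (654), RPS10L in high-glucose replicate 4 (5.26) and the second entry of RPL26 in high-glucose replicate 1 (3.33). In HCC1500 they were RPL26L1 (151), RPL41 (2613) and RPL7 (2906) in low-glucose replicate 3 and RPS3 in low-glucose replicate 1 (4490). The RPSA and RPLP0 values were the lowest of their groups.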

How the results depend on the processing

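In MDA-MB-175 the 14 called members became 23 with edgeR, 27 with DESeq2, 2 without the variance trend, 40 with the length trend of each sample removed (39 higher, 1 lower), 23 with the replicate number as a block, and 8 to 24 when single cultures were left out (24 without low-glucose replicate 4, 8 without low-glucose replicate 2 or high-glucose replicate 4, 9 without high-glucose replicate 2). The causes were not tested. Without the variance trend, ZR-75-30 had 72 called members (71 higher, 1 lower), against 79 in the main fit. HCC1500 had 42 (35 higher, 7 lower) without it, against 62. Replicate numbers did not pair samples: the mean correlation of same-numbered deviations was 0.036, 0.012 and 0.013 in the 3 lines. Including HCC1500 replicate 3 left 1 called member in HCC1500 (2 in CPM, but 55 with the length trend of each sample removed, 53 higher and 2 lower) and 3 in the F test between lines, and a share of 3.44%. Leaving out other cultures gave 76 to 80 called in ZR-75-30, 53 to 63 in HCC1500, 76 to 80, 81 to 83 and 84 to 85 between lines (ZR-75-30 and MDA-MB-175, HCC1500 and MDA-MB-175, HCC1500 and ZR-75-30), and 78 to 81 in the F test. The shares ranged over 4.49 to 4.59% and 4.50 to 4.67% in MDA-MB-175, 6.08 to 6.16% and 7.90 to 8.07% in ZR-75-30, and 2.42 to 2.48% and 2.69 to 2.72% in HCC1500, at low and high glucose. Requiring a change of at least 1 left 18 called members between ZR-75-30 and MDA-MB-175 and 38 between HCC1500 and MDA-MB-175. Shares of all genes called in these other fits are not given here.

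Single genes turned direction as follows, leaving out turns without a call in either fit. In HCC1500, RPL22 went to 0.11 with median-of-ratios rescaling and with DESeq2, 0.0975 with edgeR, 0.17 with the length trend removed and 0.27 with replicate 3 as well. RPL12 went to 0.0942 with the length trend removed. RPL39 went to 0.0135 with median-of-ratios, 0.0122 with DESeq2, and, with replicate 3 included, to 0.32 (0.0757 with the length trend removed, 0.24 in CPM). RPL41 went to 0.0366 with replicate 3 included. RPLP2 between ZR-75-30 and MDA-MB-175 went to -0.0887 in CPM, and the second entry of RPL26 between HCC1500 and ZR-75-30 to -0.50 at high glucose. Among the other values of named genes, 3107 kept their side of the threshold, 144 lost the call and 59 gained it. The 3107 take in values that changed sign without a call, such as RPL12 (0.28) and RPL22 (0.26) in HCC1500 with replicate 3 included. The second entries and RPS10L had 0 to 24 reads per culture, and depth limits them most.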
